A study of Mus musculus with 5 samples.

Results

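The genes described are Hnrnpl, Hnrnpa2b1, Hnrnpa1, Hnrnpd, Hnrnpk, Hnrnpc, Hnrnpf, Hnrnpm and Hnrnpu, which encode heterogeneous nuclear ribonucleoproteins (hnRNPs), and Elavl1, which encodes the RNA-binding protein HuR. The 3 lists of eCLIP peaks name 7318 genes, among them 5 of these 10. A row was taken as theirs where the list gave their symbol. By that rule 36 of 14092 PABPC1 peaks, 21 of 10916 CCT3 peaks and 53 of 18650 CCT3-2 peaks were theirs. The genes were chosen with the number of peaks in view, so their counts and folds are a description and no test was made on them.

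The lists come from GC-2spd(ts), an established mouse cell line that the labels call spermatocyte cells, with no treatment or genotype named for any sample. In eCLIP, RNA crosslinked to a protein is trimmed with RNase and pulled down with an antibody, then sequenced beside an input library made from lysate without the pull-down. The 5 samples were 1 PABPC1 pull-down with 1 PABPC1 input, and 2 CCT3 pull-downs, titled CCT3 and CCT3-2, with 1 CCT3 input. Both CCT3 samples carry the same library name in the labels, so they were kept apart and not averaged. Whether they are separate libraries is not stated, and neither list was taken as an independent replicate of the other. For each peak the authors give a log2 fold, taken here as pull-down over input, and a −log10 p, which stops at 400. There is 1 list per sample, hence no replicate error on any value. No read totals were used, and the depth behind a peak is unknown.

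PABPC1 is the cytoplasmic protein that coats the poly(A) tails of mRNAs, and CCT3 is a subunit of the TRiC/CCT chaperonin, which folds proteins such as actin and tubulin. The hnRNPs bind pre-mRNA in the nucleus, where they take part in splicing, 3′ end processing and export, and several of them shuttle to the cytoplasm. HuR binds AU-rich elements in 3′ UTRs and is known for stabilising the mRNAs that carry them. HnRNP L binds CA-rich RNA, and in human cells it lowers its own level through inclusion of a poison exon.

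The lists name a peak after whichever gene starts nearest to it, and for 4 of the genes that was a neighbour. Each peak was therefore also placed by position, in the gene span of RefSeq GRCm38.p6, which is the mm10 build of the lists. By position the genes held 70 PABPC1 peaks, of which 35 were listed under a neighbour. Hnrnpk's 11 peaks were listed as Mir7-1, Hnrnpc's 7 as Snord58b, Hnrnpm's 7 as Pram1 and Elavl1's 10 as Timm44. The single peak listed as Hnrnpm, at chr17:33691526-33691655, lay 6067 bases upstream of the Hnrnpm span and inside that of Marchf2, and it is left out of the values by position. The 21 CCT3 and 53 CCT3-2 peaks were the same by symbol and by position. All 70 PABPC1 and all 53 CCT3-2 peaks lay on the strand of their gene, and the CCT3 list gives no strand. The 53 were all in Hnrnpl, and the share on the gene's strand over the whole lists is not given here.

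Mir7-1 is the microRNA gene inside Hnrnpk, and its name is the one a search of the PABPC1 list for Hnrnpk would miss, so its mature product is shown, from RefSeq (GRCm38.p6, chr13:58392841-58392863, minus strand), 5′ to 3′ with the seed, bases 2 to 8, in capitals.
mmu-miR-7a-5p: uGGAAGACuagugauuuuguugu
No PABPC1 peak lay on its hairpin of 108 bases, at chr13:58392779-58392886. The nearest Hnrnpk peak was 621 bases away on the 3′ side, so none of the 11 peaks listed as Mir7-1 covered the microRNA.

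By position 8 of the 10 genes had a PABPC1 peak, and 1 of the 10, Hnrnpl, had CCT3 and CCT3-2 peaks. Over 21896 protein-coding genes, the share with a peak in the span was 25.8% for PABPC1, 9.59% for CCT3 and 12.3% for CCT3-2. By listed symbol 5 of the genes were named in the PABPC1 list and 1 in each CCT3 list, where the shares of protein-coding genes so named were 22.5%, 9.14% and 12.0%. Because the genes were chosen on these counts, nothing is read from the difference. Hnrnpa2b1 held 23 PABPC1 peaks, Hnrnpk 11, Elavl1 10, Hnrnpd 8, Hnrnpc and Hnrnpm 7 each, Hnrnpl 3 and Hnrnpf 1.

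**Figure D1:**
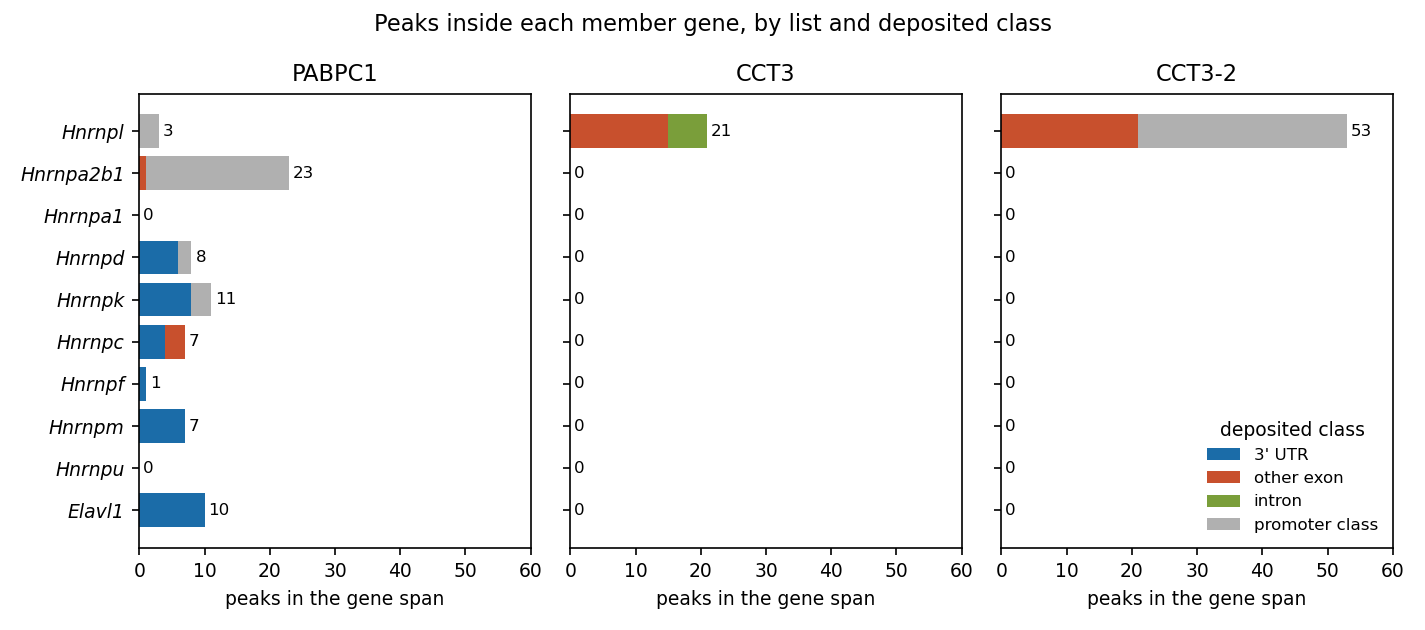
Number of peaks inside the RefSeq span of each gene (rows) in the PABPC1, CCT3 and CCT3-2 lists (panels), coloured by the class the authors gave each peak. Hnrnpl is the only one of the 10 genes with CCT3 (21) and CCT3-2 (53) peaks, while PABPC1 peaks lie in 8 genes, with 23 in Hnrnpa2b1.

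Hnrnpa1 and Hnrnpu, which encode an hnRNP of splicing and export and a nuclear scaffold-associated hnRNP, had no peak in any list by either assignment. The nearest PABPC1 peak to the Hnrnpa1 span (chr15:103239943-103246698) was 47063 bases away and listed as Cbx5, and the nearest to the Hnrnpu span (chr1:178321108-178338891) was 142611 bases away and listed as Efcab2. Processed copies of several hnRNP genes, Hnrnpa1 among them, exist elsewhere in the mouse genome, and how reads that match several places were treated is not stated in the sources used here. The level of each mRNA was not used here either, so a gene without a peak cannot be told apart from one with little RNA or with reads that were discarded.

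In Hnrnpl (gene ID 15388, chr7:28808546-28822268, plus strand) the CCT3 peaks formed 1 dense stretch in the middle of the gene. The 21 peaks ran from 28815481 to 28817712, which is 2232 bases or 16.3% of the span, and covered 1317 bases, 59.0% of that stretch. No gap between neighbouring peaks exceeded 105 bases, and the median gap was 37 bases. Their log2 folds over input were between 5.11 and 7.96 with a median of 6.12, whereas the median over all CCT3 peaks was 4.05. The lowest Hnrnpl peak of the CCT3 list was therefore above the median of that list.

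The highest fold of these, 7.96, belonged to chr7:28816630-28816730 and was the second highest of all 10916 CCT3 peaks. Close to it was chr7:28816883-28816924 at a log2 fold of 7.93, and between them lay chr7:28816760-28816805 at 7.62. Toward the 3′ side the folds were lower, and the last peaks of the stretch, chr7:28817519-28817573 and chr7:28817666-28817712, had 5.11 and 5.54. At the 5′ edge the first peak, chr7:28815481-28815544, had 7.15. The −log10 p was at the cap of 400 in 12 of the 21 peaks, and the lowest was 46.9. In the whole CCT3 list 56 peaks reached the cap, so Hnrnpl held 21.4% of them.

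The deposited annotation put 14 of the 21 CCT3 peaks in exon 6 of 6 of the transcript ENSMUST00000173750.7. A further peak was placed in exon 6 of 13 of ENSMUST00000174882.7, and the other 6 in intron 7 of 13 of ENSMUST00000174548.7. Exonic and intronic peaks were next to each other in the same stretch: all 6 intronic ones lay on its 3′ side, from 28816981 on, and the exon 6 of 13 peak lay among them at 28817317–28817338. None was called a 3′ UTR peak. The midpoints of the 21 peaks were 4579 to 6755.5 bases from the 3′ end of the gene.

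The CCT3-2 list gave the same stretch in smaller pieces. Its 53 peaks ran from 28815480 to 28817717, within 5 bases of the CCT3 edges, and covered 1484 bases. They were shorter, with a median width of 22 bases against 50 bases in CCT3, and 33 of the 52 gaps between neighbours were of 0 bases. Merging peaks within 10 bases of each other left 16 blocks in CCT3-2 and 19 in CCT3. The larger count in CCT3-2 thus goes with touching pieces of the same stretch. The median log2 fold was 6.21, against 3.83 over all CCT3-2 peaks, and the highest was 7.94 at chr7:28816885-28816897, the fourth highest of that list. In CCT3-2, 26 of the 53 peaks were at the −log10 p cap, which is 10.2% of the 256 capped peaks of that list.

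Each of the 21 CCT3 peaks shared at least 1 base with a CCT3-2 peak, and 50 of the 53 CCT3-2 peaks with a CCT3 peak. The shares over the whole lists are not given here, so this overlap cannot be called particular to Hnrnpl. With 50% of both peaks required, 15 of 21 CCT3 and 15 of 53 CCT3-2 peaks remained. A CCT3 peak met 1 to 5 CCT3-2 pieces. Over the 51 overlapping pairs the log2 fold in CCT3-2 minus that in CCT3 had a median of −0.16 and ran from −1.07 to 0.44. Since the labels give both samples 1 library name, this closeness cannot be taken as agreement between replicates.

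The same bases carried different classes in the CCT3 and CCT3-2 lists. In CCT3-2, 21 peaks were called exonic, all in exon 6 of 6 of ENSMUST00000173750.7, and 32 were put in a promoter class, with none intronic. Of the 51 overlapping pairs, 20 were exonic in both lists, 19 were exonic in CCT3 and promoter class in CCT3-2, and 12 were intronic in CCT3 and promoter class in CCT3-2. The promoter class reached up to 1000 bases from the listed start in the PABPC1 list and 999 bases in the CCT3-2 list, but 0 bases in the CCT3 list. Of the 21 CCT3 peaks, 14 lay within 1000 bases of their listed start. The share of exonic peaks was 71.4% in CCT3 (95% Wilson interval 50.0 to 86.2%) and 39.6% in CCT3-2 (27.6 to 53.1%), and the class rule differs between these values. Over all peaks the exonic shares were 47.9% in CCT3 and 38.6% in CCT3-2, so the CCT3-2 value was near that of its list. Intronic peaks were 28.6% of those in Hnrnpl and 29.6% of all peaks in CCT3, and in CCT3-2 none in Hnrnpl and 27.6% of all peaks. In CCT3-2 the promoter class held 60.4% of the Hnrnpl peaks (46.9 to 72.4%) and 16.2% of all peaks.

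PABPC1 peaks lay at the other end of Hnrnpl. There were 3 of them, at chr7:28821997-28822089, chr7:28822095-28822152 and chr7:28822176-28822238, with log2 folds of 5.07, 4.07 and 6.51. All 3 were at the −log10 p cap, and their midpoints were 61 to 225 bases from the 3′ end of the gene. The list calls them promoter class, although they lie 11153 bases or more from the nearest RefSeq start of Hnrnpl. Between the last CCT3 peak and the first PABPC1 peak were 4284 bases, and between the last CCT3-2 peak and that PABPC1 peak 4279 bases. No PABPC1 peak of Hnrnpl shared a base with a CCT3 or CCT3-2 peak. The other genes had no CCT3 or CCT3-2 peak, so no overlap was possible in them. The overlap over the whole lists is not given here, so nothing is read from its absence in Hnrnpl.

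**Figure D2:**
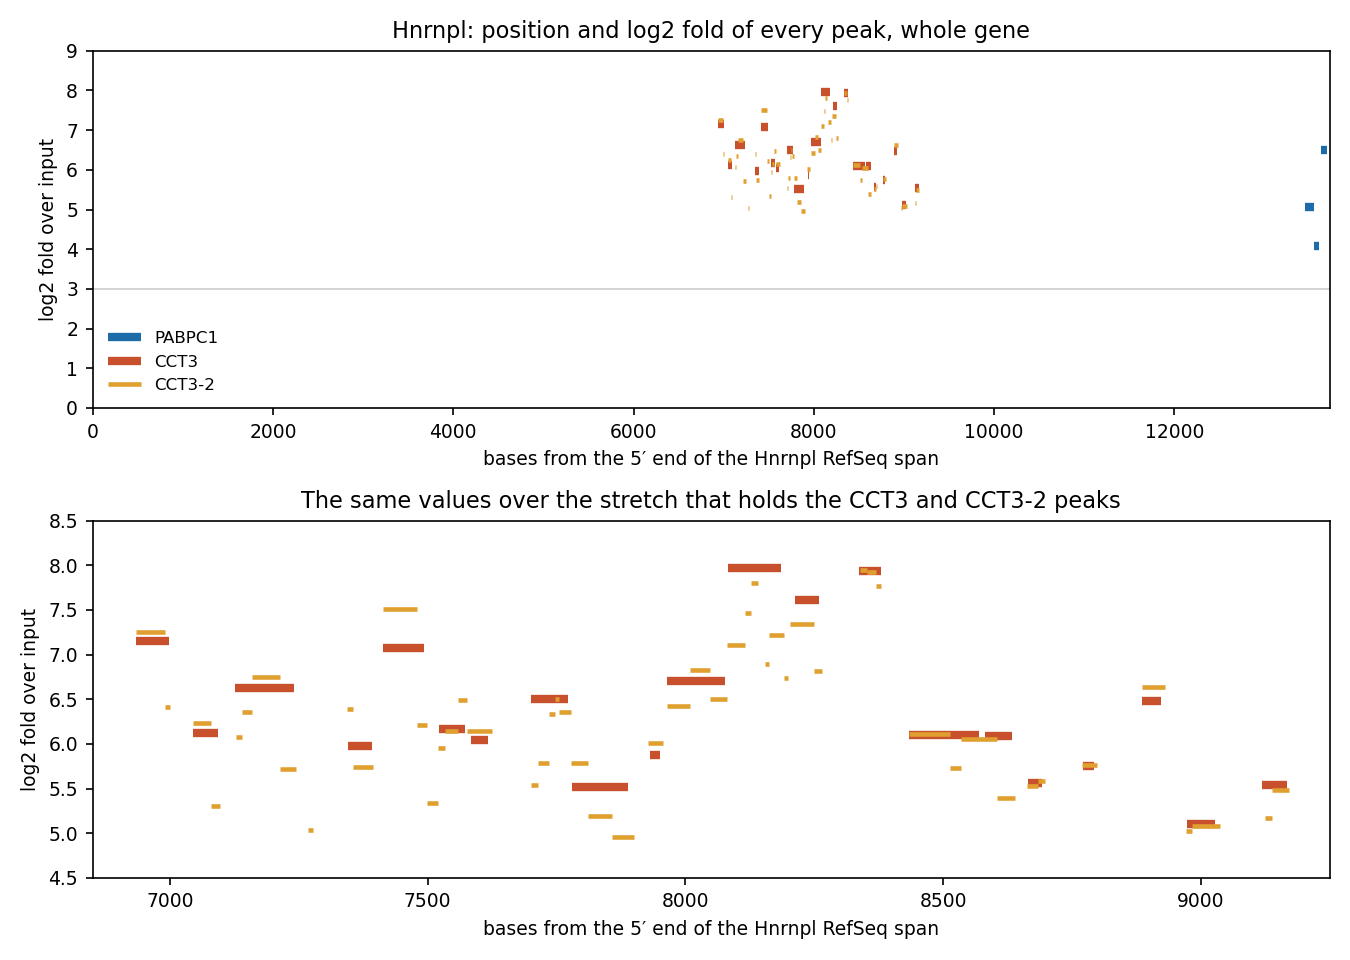
Every peak of Hnrnpl, drawn to scale as a bar at its distance from the 5′ end of the RefSeq span (x axis, bases) and its log2 fold over input (y axis), for the whole gene (top) and for the stretch with the CCT3 and CCT3-2 peaks (bottom). The grey line in the top panel marks a log2 fold of 3. The 21 CCT3 and 53 CCT3-2 peaks share 1 stretch with folds of up to 7.96 and 7.94, and the 3 PABPC1 peaks sit at the 3′ end.

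Among the 351 genes with at least 10 CCT3 peaks in their span, Hnrnpl ranked 1 by median log2 fold and 1 by the number of peaks at the −log10 p cap. By covered share of the stretch that holds the peaks it ranked 9. In the CCT3-2 list the same ranks were 1, 1 and 13 of 625 genes. The next genes by capped peaks in the CCT3 list, Zbed6, Zc3h11a and Rbm15, had 5 each, against 12 in Hnrnpl. Zbed6 is an intronless gene inside Zc3h11a, so a peak in its span counts for both. By the number of peaks listed under a symbol Hnrnpl was lower down, at rank 57 of 2210 genes in CCT3 and 13 of 2852 in CCT3-2, and the CCT3-2 rank was 174 after merging within 10 bases.

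**Figure D3:**
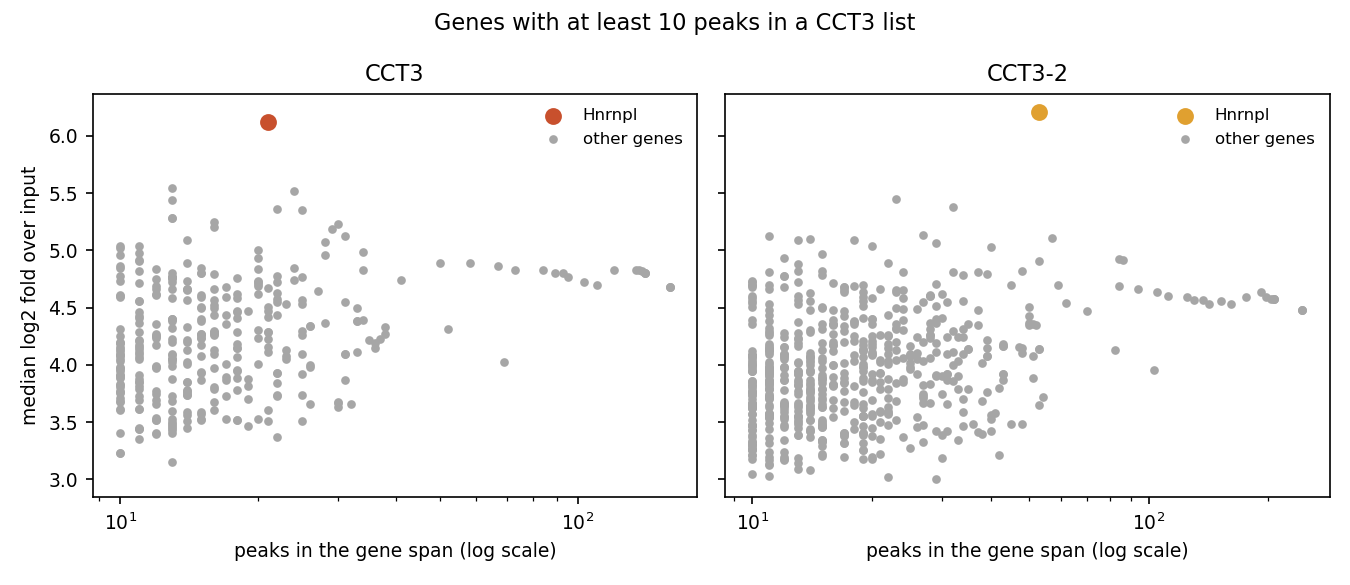
Median log2 fold over input (y axis) against the number of peaks in the gene span (x axis, log scale) for each gene with at least 10 peaks in the CCT3 list (left, 351 genes) and the CCT3-2 list (right, 625 genes). Hnrnpl, the coloured point, has the highest median in both panels, 6.12 in CCT3 and 6.21 in CCT3-2.

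Hnrnpa2b1 (gene ID 53379, chr6:51460434-51470048, minus strand) encodes the closely related hnRNPs A2 and B1, which bind mRNAs for splicing and transport. It had 23 PABPC1 peaks, the second highest number of the 5289 genes listed for PABPC1, and no CCT3 or CCT3-2 peak. At a log2 fold of at least 4 and a −log10 p of at least 5, 12 of the 23 were left. The peaks were short, from 2 to 104 bases with a median of 25, and together covered 691 bases of the 3421 bases between 51462794 and 51466214. Many touched: merging within 10 bases left 9 blocks, which put Hnrnpa2b1 at rank 20. Of all PABPC1 peaks in the 10 genes, 58.6% touched a neighbour, and of all PABPC1 peaks of the list 24.1% did.

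The folds of Hnrnpa2b1 were uneven along the gene, and the high ones lay together. The 6 peaks nearest the 3′ end, from 51462794 to 51463023, had log2 folds of 4.87 to 6.18, and all 6 were at the −log10 p cap. The highest of the gene, 6.18, was at chr6:51462999-51463023. The next 9 peaks, 2700 to 3500 bases from the 3′ end, had 3.41 to 4.29 with 2 at the cap. Farther upstream, 3 peaks between 3500 and 4000 bases had 3.59 to 4.21, and the 5 peaks beyond 4000 bases had 3.05 to 3.53 with none at the cap. Over the gene the median fold was 4.00, against 4.19 over all PABPC1 peaks, and it was 5.09 in the 9 capped peaks and 3.50 in the other 14.

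None of the Hnrnpa2b1 peaks was called a 3′ UTR peak. The list put 22 in the promoter class and 1, chr6:51465178-51465222, in exon 7 of 10 of ENSMUST00000069949.12. The starts listed for the 22 belong to internal transcripts such as ENSMUST00000204885.1, and the peaks lay 3667.5 bases or more from the nearest RefSeq start of Hnrnpa2b1. Their midpoints were 2376.5 to 5743.5 bases from the 3′ end of the RefSeq span, so no peak of this gene was within 500 bases of it. The distance depends on the transcript. The listed ENSMUST00000204090.1 ends at 51462800, inside the peak chr6:51462794-51462827, and 11 of the 23 midpoints lay within 500 bases upstream of that end. Those 11 peaks are listed under ENSMUST00000204885.1, which ends at 51461145, and none lay within 500 bases upstream of its end. The same held for the listed ENSMUST00000204902.1, which ends at 51464632.

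**Figure D4:**
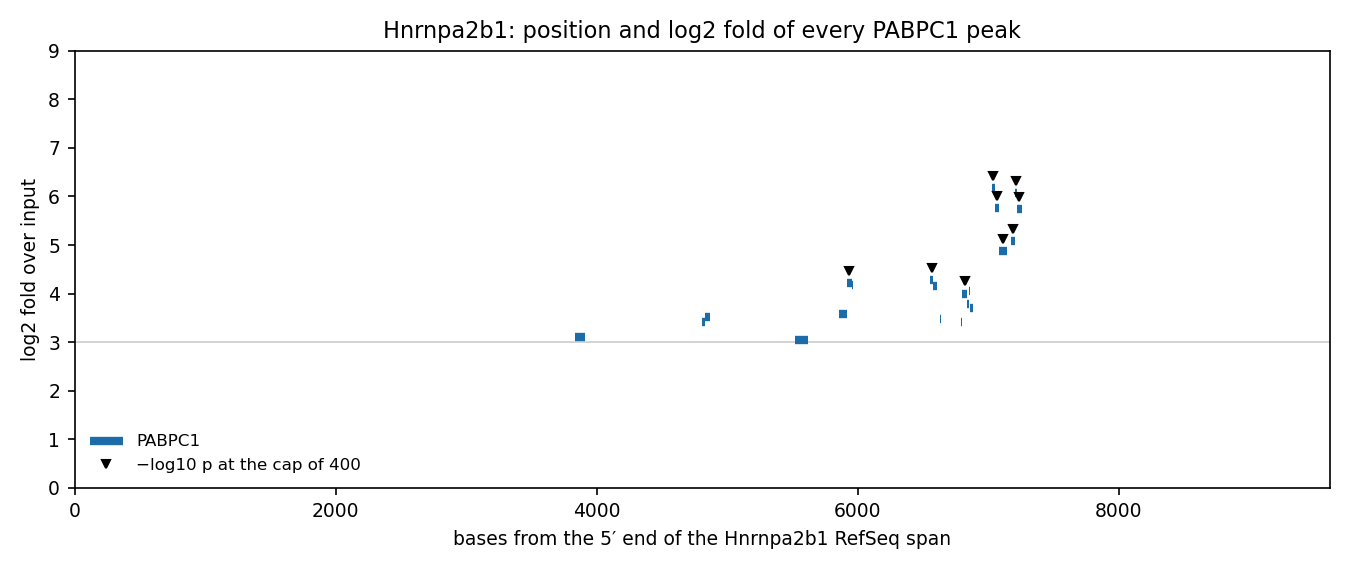
The 23 PABPC1 peaks of Hnrnpa2b1, drawn to scale as bars at their distance from the 5′ end of the RefSeq span (x axis, bases) and their log2 fold over input (y axis), with a triangle over each of the 9 peaks at the −log10 p cap of 400. The grey line marks a log2 fold of 3. The 6 peaks with folds of 4.87 to 6.18 are the ones nearest the 3′ end.

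Hnrnpm, Hnrnpk and Hnrnpf carried PABPC1 peaks close to the 3′ end. Hnrnpm (chr17:33646233-33685458, minus strand), which encodes a splicing regulator, had 7 peaks, all called 3′ UTR and all within a stretch of 252 bases whose midpoints were 50 to 272.5 bases from the end. The log2 folds of Hnrnpm were 3.49 to 6.83, 4 of its peaks were at the −log10 p cap, and the highest was chr17:33646471-33646493. The listed Hnrnpm peak inside Marchf2 had 3.81, so the symbol alone would give this gene a lower value than its own 3′ end.

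In Hnrnpk (chr13:58391132-58403343, minus strand), whose product binds C-rich RNA and DNA, 11 peaks lay 134.5 to 1010.5 bases from the 3′ end. The list called 8 of them 3′ UTR and 3 promoter class. Their log2 folds were 3.003 to 6.58, and they had 2 high places. A run of 5 peaks from 58391246 to 58391385 had 5.19 to 6.58, and a pair from 58392115 to 58392157 had 5.98 and 5.70, with values of 3.003 to 4.15 between them. Hnrnpf (chr6:117900340-117925622, plus strand), a G-tract-binding splicing regulator, had 1 peak at chr6:117925388-117925443, with a log2 fold of 6.34 and its midpoint 206.5 bases from the end.

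Hnrnpc and Elavl1, like Hnrnpl, had their highest PABPC1 fold at the peak nearest the 3′ end. Hnrnpc (chr14:52073377-52104039, minus strand) encodes a U-tract-binding core protein of nuclear hnRNP particles. Its top peak, chr14:52074072-52074139, had a log2 fold of 7.39, the highest PABPC1 value in the 10 genes and rank 177 in the list, and its midpoint was 728.5 bases from the end. The other 6 Hnrnpc peaks, 1508 to 2253.5 bases from the end, had 3.19 to 4.22. Of the 7, the list put 4 in the 3′ UTR and 1 each in exons 9, 8 and 7 of 9 of ENSMUST00000111610.11. The folds thus fell off upstream of a single high peak.

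Elavl1 (chr8:4284781-4325140, minus strand) had 10 PABPC1 peaks, all called 3′ UTR and in 3 separate groups. The group nearest the end held 3 peaks 658 to 865 bases from it with log2 folds of 7.30, 4.99 and 4.16, of which the first was chr8:4285397-4285481, rank 207 in the list. A second group of 3, from 4288275 to 4288489, had 3.51, 5.39 and 4.27. The third held 4 peaks from 4289320 to 4289506 with 3.70 to 5.25, at up to 4705.5 bases from the end. No Elavl1 peak was at the −log10 p cap, and the highest value of its 10 peaks was 57.9. No CCT3 or CCT3-2 peak lay in Elavl1, and the nearest were 48986 and 49398 bases from its span.

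Hnrnpd (chr5:99955935-99979130, minus strand) encodes AUF1, which binds AU-rich elements as HuR does but is known mainly for promoting decay. Its 8 PABPC1 peaks lay farthest from the end of the RefSeq span, at 5130.5 to 11330.5 bases. The listed transcript ENSMUST00000164833.1 ends at 99961168, inside one of its peaks, chr5:99961132-99961207, so the distance depends on which transcript is taken. The highest log2 fold of Hnrnpd was 6.17 at chr5:99961101-99961131, next to 5.83 at chr5:99961032-99961099. Both of these peaks lie past 99961168 on the minus strand, outside that transcript. The list called 6 peaks 3′ UTR and 2 promoter class, and those 2 had 3.16 and 3.40. No Hnrnpd peak was at the −log10 p cap, and its median −log10 p was 6.62.

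**Figure D5:**
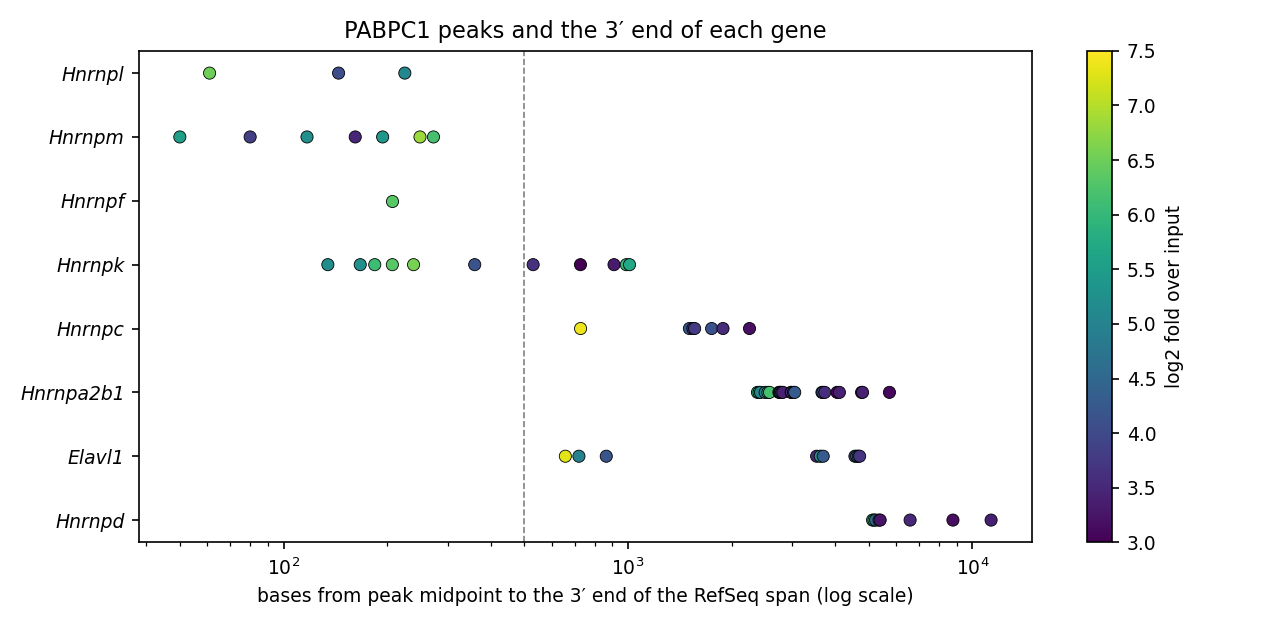
Each PABPC1 peak of the 8 genes that hold one, at the distance of its midpoint from the 3′ end of the RefSeq span (x axis, bases, log scale), coloured by log2 fold over input, with genes ordered by median distance. The dashed line marks 500 bases. The 17 peaks left of it belong to Hnrnpl, Hnrnpm, Hnrnpf and Hnrnpk.

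Of the 70 PABPC1 peaks in the 10 genes, 17 were within 500 bases of where the RefSeq span ends, which is 24.3% (95% Wilson interval 15.8 to 35.5%, counting error only). Over the 10852 PABPC1 peaks that lie in exactly 1 protein-coding span the share was 48.4%. Without Hnrnpa2b1 it was 17 of 47 peaks, or 36.2%. The median distance was 2463.75 bases in the 10 genes, 911 bases without Hnrnpa2b1, and 540.25 bases over those 10852 peaks. None of the 21 CCT3 and 53 CCT3-2 peaks of Hnrnpl was within 500 bases of the 3′ end, and in those lists 1.48% and 1.5% of all such peaks were.

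By class, 36 of the 70 PABPC1 peaks in the genes were called 3′ UTR (51.4%, 40.0 to 62.8%), 4 other exon, none intron and 30 promoter class. Over the whole PABPC1 list 79.9% were 3′ UTR, 5.36% other exon, 1.09% intron and 13.2% promoter class. By listed symbol, which leaves out all 35 peaks inside Hnrnpk, Hnrnpc, Hnrnpm and Elavl1, 8 of 36 were 3′ UTR (22.2%, 11.7 to 38.1%) and 27 promoter class. Among the 40 peaks in the genes more than 1000 bases from their listed start, 36 were 3′ UTR. The promoter class ends at 1000 bases, so this filter takes that class out and the higher share follows from the class rule. Outside the promoter class the whole list held 11263 peaks called 3′ UTR, 756 other exon and 154 intron. None of the promoter-class peaks, 30 in PABPC1 and 32 in CCT3-2, touched the window of 250 bases before to 50 bases after a RefSeq start of its gene. In the 6 genes with PABPC1 peaks other than Hnrnpa2b1 and Hnrnpl, 36 of 44 peaks were 3′ UTR and 5 promoter class.

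The median log2 fold over all 70 PABPC1 peaks of the genes was 4.19, the same to 2 decimals as over the whole list. The highest peak per gene ran from 6.17 in Hnrnpd and 6.18 in Hnrnpa2b1 through 6.34 in Hnrnpf, 6.51 in Hnrnpl, 6.58 in Hnrnpk and 6.83 in Hnrnpm to 7.30 in Elavl1 and 7.39 in Hnrnpc. With 1 list there is no spread by which to say whether neighbours in this order differ. The 16 PABPC1 peaks at the −log10 p cap were 9 in Hnrnpa2b1, 4 in Hnrnpm and 3 in Hnrnpl. Over the whole PABPC1 list 677 of 14092 peaks, or 4.80%, were at the cap.

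Of 24 other genes of the hnRNP family, 20 had a PABPC1 peak in their span, as did 25.8% of all protein-coding genes. The highest log2 folds were 8.12 in Hnrnpll, 7.07 in Hnrnpa0, 6.98 in Ptbp2 and 6.75 in Raly, and all peaks of these 4 genes were called 3′ UTR. By position the same 3 of the 24 had peaks in both CCT3 lists, Hnrnpll, Pcbp3 and Ptbp3. The shares of all protein-coding genes were 9.59% in CCT3 and 12.3% in CCT3-2. By listed symbol 4 of the 24 were named in CCT3 and 5 in CCT3-2, with Hnrnpa3 added in both lists and Ptbp1 in CCT3-2. Hnrnpll, the paralogue of Hnrnpl and a regulator of splicing in lymphocytes, had 6 CCT3 peaks with log2 folds of 3.36 to 4.66, all in exon 6 of 6 of ENSMUST00000184889.1, within 747 bases and 18237 to 18944.5 bases from the 3′ end. CCT3-2 had 10 peaks there with folds of up to 5.54. Hnrnpll's 8 PABPC1 peaks were 58 to 949.5 bases from the 3′ end, so both Hnrnpl and Hnrnpll had CCT3 peaks inside the gene and PABPC1 peaks toward its end. Such a placement is not particular to these genes. Of the peaks in exactly 1 protein-coding span, 48.4% in the PABPC1 list and 1.48% in the CCT3 list were within 500 bases of the 3′ end. Pcbp3 and Ptbp3 had 14 and 2 CCT3 peaks, all intronic, with folds of up to 5.58 and 4.26.

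Among the 3 other Elavl genes, which encode the neuronal Hu proteins, Elavl2 and Elavl3 had PABPC1 peaks, with highest log2 folds of 4.42 and 4.77 against 7.30 in Elavl1, and none of the 3 had a CCT3 or CCT3-2 peak. Of 11 other genes for proteins that act with HuR or bind AU-rich elements, by position 6 had peaks in the PABPC1 list, 1 in the CCT3 list and 3 in the CCT3-2 list. For all protein-coding genes these shares were 25.8%, 9.59% and 12.3%. The highest PABPC1 folds were 6.84 in Khsrp, which promotes decay of such mRNAs, 6.73 in Tial1, 4.27 in Tia1 and 3.36 in Igf2bp3. The CCT3 gene was Zfp36l2, at a fold of 3.31.

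The genes most like Hnrnpl in their number of listed peaks over the 3 lists were Filip1l, Ccdc138 and Cetn4, with 22, 26 and 26 CCT3 peaks. Likeness was the Euclidean distance of log2(1 + peaks), which was 0.51, 0.62 and 0.69. The highest CCT3 log2 folds of these genes were 5.29, 5.64 and 6.72, all below the 7.96 of Hnrnpl. For Hnrnpa2b1 they were Hsp90b1, Insl3 and Cd59b, with 22, 22 and 19 PABPC1 peaks, no CCT3 peak and highest PABPC1 folds of 6.79, 7.71 and 5.33. Hnrnpa2b1 had no 3′ UTR peak, against 8 of 22 in Hsp90b1, 12 of 22 in Insl3 and all 19 in Cd59b. Insl3 had 10 promoter-class peaks, and Hsp90b1 and Cd59b had none, against 22 in Hnrnpa2b1.

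The labelled cell type was checked against marker genes by PABPC1 peaks in their spans. Such peaks lay in 10 of 10 spermatocyte genes and 5 of 5 spermatid genes, but also in 6 of 6 fibroblast, 5 of 6 Sertoli and 4 of 6 Leydig genes. Over all protein-coding genes the share was 25.8%. The highest PABPC1 log2 folds of the markers were 8.43 in the spermatid gene Prm1, 8.10 in the spermatocyte gene Sycp3 and 7.71 in the Leydig gene Insl3. The check thus did not single out spermatocytes among these cell types. The CCT3 list had a peak in 1 of these 33 genes, a Sertoli marker, and in 9.59% of all protein-coding genes. The part of other cell types' RNA in the values of the hnRNP genes and Elavl1 was not tested.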

How the data were processed

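eCLIP peaks of PABPC1 and CCT3 from GC-2spd(ts) cells were taken as deposited, 1 list for each of 3 pull-down samples. The submitters' processing notes name bcl2fastq 2.20 and mm10; the aligner and peak caller used were not given in the sources used here. The log2 fold values are those the authors deposited, named in the header of the CCT3 table and read from place and range in the other tables, whose columns are unnamed. The −log10 p values are likewise those of the authors and stop at 400.

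Gene spans were those of RefSeq GRCm38.p6, and all 10 symbols matched. Distances run from a peak's midpoint to the end of the span. Overlaps used bedtools 2.31.1 with at least 1 shared base, regardless of strand because the CCT3 table has none, and the counting was tested on simulated data. Shares have 95% Wilson intervals, which cover counting error only and treat peaks as independent, although touching pieces of a gene are not (Python 3.11.15, numpy 2.4.6, pandas 2.3.3, scipy 1.17.1, matplotlib 3.10.9).

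Named were the 10 genes, the 4 highest folds per protein of each further list, the 3 genes with the most similar peak counts, and the top peak per gene. Zbed6, Zc3h11a, Rbm15, neighbours named by the lists and other single peaks were added after their values were seen. The genes and lists were chosen with earlier results of these data known. Alternatives tried included a stricter threshold (log2 fold of 4 or more, −log10 p of 5 or more), position in place of symbol, merging within 10 bases, covered bases, peaks beyond 1000 bases of the listed start, leaving out Hnrnpl or Hnrnpa2b1, 50% reciprocal overlap, exonic peaks and the CCT3-2 list.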

Additional observations from a re-analysis of the deposited data

How the results depend on the processing

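Of 61 alternative values for the comparisons, 42 stayed within 1.5 times of the value given or within its interval, and 19 moved. None changed direction, since no direction was tested. Some of the 42 could not move, because leaving out Hnrnpa2b1 or raising the threshold removed none of the 21 CCT3 peaks. The intervals are also wide: the 2.78% of PABPC1 peaks in other exons counted as kept at 11.1% beyond 1000 bases of the listed start. The 42 are therefore not a measure of stability. The 36 PABPC1 peaks of the genes by symbol became 20 at a log2 fold of at least 4 and −log10 p of at least 5, 70 by position and 19 after merging within 10 bases. The 5 genes with a PABPC1 peak became 8 by position, with or without the stricter threshold. The 21 CCT3 peaks became 53 with the CCT3-2 list, also at a log2 fold and −log10 p of at least 3. The 22.2% of PABPC1 peaks in 3′ UTRs became 88.9% beyond 1000 bases of the listed start, where the class rule leaves no promoter class. It became 61.5% without Hnrnpa2b1 and 51.4% by position. The 2.78% in other exons became 0% under the stricter threshold and without Hnrnpa2b1. For CCT3, the 71.4% in other exons became 100% beyond 1000 bases and 39.6% with CCT3-2, and the 28.6% in introns became 0% under both. The median PABPC1 distance of 2463.75 bases became 1508 at the stricter threshold, 1186.5 for exonic peaks and 911 without Hnrnpa2b1. Of 29 alternative values for single genes 10 moved: at the stricter threshold Hnrnpa2b1 had 12 PABPC1 peaks in place of 23, Hnrnpd 4 in place of 8 and the Hnrnpm symbol 0 in place of 1. Merging left 9 in Hnrnpa2b1, position gave 11 in Hnrnpk, 7 in Hnrnpc, 7 in Hnrnpm and 10 in Elavl1, and CCT3-2 gave 53 in Hnrnpl at both thresholds. Position for the shares, the gene counts and distances with CCT3-2 or without Hnrnpa2b1 were chosen after seeing the data. Leaving out Hnrnpl gave no value for CCT3, since it holds every CCT3 peak of the genes. No paired analysis was possible because PABPC1 has 1 list, the 2 CCT3 lists share a library name, and nothing was tested between samples. As read depth is not known, the absence of a peak is not evidence that a protein did not bind.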
